A study of Homo sapiens with 34 samples.

Results

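Long 3′ untranslated regions (3′ UTRs) of genes with a single annotated 3′ UTR interval were followed by SLAM-seq in a pair of human hTERT-RPE1 lines, an immortalised line derived from the retinal pigment epithelium. An interval was taken where it was at least 3000 bases long, where its name was that of 1 gene found in no other interval, and where under 10% of its reads over all libraries were multimapped. Of 71668 annotated 3′ UTR intervals, 8990 were the only interval of their gene, 1419 of these were 3000 bases or longer, and 1014 remained after 6 without a read and 399 with too many multimapped reads were left out. A mean of at least 5 CPM (read counts scaled to the mapped reads of a library) was reached by 787 of the 1014, which were used for decay. The other 227 were left out of decay, while the tests of abundance and label content had their own limits on counts. The rule used length, names and multimapping and no difference between the lines.

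Both lines carried a doxycycline-inducible shRNA against the 3′ UTR of CCND1, the gene of cyclin D1, which drives entry into S phase. The line labelled as knockdown (KD) carried the shRNA alone, and the line labelled as overexpression (OE) carried in addition an inducible, FLAG-tagged CCND1 allele that the shRNA spares. By the study's account both are polyclonal lentiviral lines, induction makes the KD cells larger and the OE cells smaller, and the question put to the time courses was whether large and small cells turn over their mRNAs at different rates. All cells received 0.5 µg/mL doxycycline, and from day 4 their mRNA was labelled over 24 h with 10 µM of the uridine analogue s4U, renewed at intervals of 3 h, before a chase in 1 mM uridine, while unlabelled controls were given uridine in place of s4U. There were 34 libraries, 17 for each line, of which 30 were labelled and 4 were not, and they form 4 time courses of 0 to 1440 min, KD courses 1 and 2 with 6 and 9 labelled time points and OE courses 1 and 2 with 7 and 8. The labels do not say whether courses came from separate cultures, so that p-values measure the spread between these courses, which may be technical.

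The 3′ UTR is the stretch of an mRNA behind the stop codon, where microRNAs and RNA-binding proteins attach. AU-rich elements, runs of ATTTA in the DNA alphabet, are bound by proteins that speed or slow the removal of the poly(A) tail, Pumilio proteins bind sites that start with TGTA, and cleavage in front of the poly(A) tail is guided by AATAAA or a near variant. Many genes can end at several polyadenylation sites, and growing cells often use more upstream ones, so that a long annotated 3′ UTR need not be the one that a cell makes. The libraries here were read from the poly(A) end (QuantSeq FWD), and a conversion of T to C marks a base where s4U had been built in.

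The sequences below show the motifs counted in these 3′ UTRs, read from hg38 on the strand of the transcript, with the motif in capitals and 10 bases on either side. The AU-rich nonamer TTATTTATT, which holds an ATTTA, is shown at its first site in the 6 members named for abundance or for a short half-life that had one, all of which return below.
LIF (chr22:30240958-30240986, minus strand): ctccgggcccTTATTTATTatttaaacat
NMNAT2 (chr1:183252137-183252165, minus strand): tttcttttgtTTATTTATTtttctttgtt
THBS1 (chr15:39596502-39596530, plus strand): taaatacagaTTATTTATTaactctgttc
SOX11 (chr2:5701145-5701173, plus strand): aaattaagcaTTATTTATTgaaaactatg
C21orf91 (chr21:17793019-17793047, minus strand): atatcacctcTTATTTATTatgagcaata
HRH1 (chr3:11262296-11262324, plus strand): tctatgtgatTTATTTATTtctacctttc
LIF held 2 such sites and the other 5 held 1 each.

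The Pumilio-type motif TGTANATA, in which N is any base, is shown at its first site in the 3 longest intervals that reached 5 CPM, of which FLRT2 held 15, ZBTB20 held 3 and SRGAP1 held 5.
FLRT2 (chr14:85625756-85625783, plus strand): cccttggctgTGTAGATAaaattgtgca
ZBTB20 (chr3:114331555-114331582, minus strand): tgtgtgtttgTGTATATActtattgtca
SRGAP1 (chr12:64151244-64151271, plus strand): actcatattcTGTATATAattgtatata
The hexamer AATAAA is shown where it lay within 50 bases of the annotated end, for LSM3, NDUFA9 and CCDC80, among the members with the longest half-lives, and for TRIM24 and IRS2, among those with the shortest.
LSM3 (chr3:14201075-14201100, plus strand): gtagaaaattAATAAAagttccagga
NDUFA9 (chr12:4694275-4694300, plus strand): tgaaaaatgaAATAAAatttttggca
CCDC80 (chr3:112596799-112596824, minus strand): tttgcctgtaAATAAAaggtttattt
TRIM24 (chr7:138589961-138589986, plus strand): ttaaacatttAATAAAattattttcc
IRS2 (chr13:109752702-109752727, minus strand): cttttgaacaAATAAAatcagtgcaa
HRH1 and C21orf91, also among the members with the shortest half-lives, held an AATAAA within 50 bases of the end that is not printed. A match of these letters is a description of the sequence and not of a bound site.

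Libraries held 14712332 to 44480703 3′ UTR reads, of which 5.12% to 6.48% fell in the 1014 members (828494 to 2407338 reads). Over the members, libraries correlated with the rest of their line at r of 0.967 or more except for 3, the unlabelled library of KD course 1 (0.886), the 720 min library of OE course 1 (0.898) and the unlabelled library of OE course 1 (0.922), and the summed and median results that rest on them are given with and without them, while label rates of single members rest on the unlabelled libraries throughout. CCND1 is no member, as it has more than 1 interval. Its 3′ UTR reads stood at 77.1 to 192 CPM of 3′ UTR reads in KD and 40.4 to 81.9 in OE libraries, above in the line labelled knockdown. Since both lines express the shRNA and the added allele need not carry the native 3′ UTR, these reads check neither label. The lines were taken from the titles, with which the genotype and treatment labels go, and the study describes checks of cyclin D1 protein in them, which were not analysed here. VIM, KRT8, KRT18, CDH2 and MITF, markers of cultured pigment epithelium, were present in every library, OTX2 of the same list was low, at medians of 1.73 CPM in KD and 2.47 in OE, and RPE65, RLBP1, BEST1, TYR and PMEL, which mark the differentiated tissue, were at medians of 0 to 0.143 CPM in each line, and markers of blood, endothelium and liver were at medians of 0 to 0.0734 CPM.

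The members were 3001 to 30929 bases long, with a median of 4355, and 398 of them were under 4000, 244 were from 4000 to under 5000, 294 were from 5000 to under 8000 and 78 were 8000 bases or longer. At the edges of the rule, ZNF398 at 3001 and LSM3 and PEX2 at 3003 bases were inside, and ZNF583 at 2996, CEBPG at 2994 and TGFBRAP1 at 2992 bases were outside, while KPNA4, with 9.89% of multimapped reads, and KPNB1, with 9.88%, were the most abundant near the multimapping limit. The members lay on 23 chromosomes, and none overlapped another interval of its strand. In the GENCODE v44 annotation of hg38, 992 of the 1014 gene names were found at the place of the interval, 954 intervals ended within 50 bases of an annotated transcript end, and 667 held 2 or more annotated ends.

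Compared with the 4494 shorter single-interval 3′ UTRs chosen in the same way, the members were richer in T and poorer in G and C. Their median T content was 31.1% and their median GC content 40.1%, against 29.9% and 42.8% in 1920 intervals of 1000 to under 3000 bases, 28.3% and 46.5% in 1047 of 500 to under 1000 bases, and 26.9% and 47.2% in 1527 under 500 bases. ATTTA was found in 97.6% of the members, at 2.31 per 1000 bases over all of them, against 2.14, 2.03 and 1.94 per 1000 bases from the next class down to the shortest. The longer motifs went the other way per length, since TTATTTATT was found in 23.0% of the members but at 0.0693 per 1000 bases, against 0.0808, 0.0869 and 0.0795, and TGTANATA in 58.8%, at 0.218 against 0.244, 0.275 and 0.266 per 1000 bases.

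Within the last 500 bases, a window of the same length in every interval, ATTTA was found in 70.6% of the members, 62.9% of intervals of 1000 to under 3000 bases and 56.5% of those of 500 to under 1000 bases. TTATTTATT stood at 3.25%, 4.17% and 3.44% in that window, and TGTANATA at 16.5%, 14.8% and 13.8%. AATAAA lay within 50 bases of the end in 70.5% of the members, against 65.9%, 64.0% and 62.2% in the shorter classes in order. Motifs were searched on the transcript strand alone with overlaps allowed, and no test was run on these shares.

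In level, 77.6% of the members reached 5 CPM of mapped reads, against 62.1% of intervals of 1000 to under 3000 bases, 55.1% of those of 500 to under 1000 and 44.5% of those under 500. Among intervals that reached it, the median level was close, at 25.5 CPM for the members and 26.8, 28.9 and 27.2 CPM for the shorter classes in order. On the scale of CPM per 1000 bases the median over all intervals fell with length, from 45.2 under 500 bases to 26.0, 11.4 and 5.43 in the members. Reads of these libraries gather near poly(A) ends, so that a level per length falls with length by construction for equal numbers of transcripts, and the unscaled level is used below.

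The next comparison asked which long 3′ UTRs differed in abundance between the lines. Reads were summed for each course over the 6 samples that all courses share (unlabelled, 0, 180, 360, 720 and 1440 min), and 2 KD courses were tested against 2 OE courses with edgeR's quasi-likelihood test over all genes. Levels are given as CPM of 3′ UTR reads after TMM scaling. Of 1002 members tested, 153 were higher in KD, 104 were lower and 745 did not pass an adjusted p of 0.05 (Benjamini-Hochberg). That is 25.6% of the members called, beside 21.9% of the 13165 genes tested in all, with 15.3% higher beside 11.2% and 10.4% lower beside 10.7%. The median log2 difference of the members was 0.04, with quartiles at -0.25 and 0.36, beside -0.01 for all genes. Calls took 25.3% of tested intervals of 1000 to under 3000 bases, 24.5% of 500 to under 1000 and 17.9% of those under 500 bases, so that the share in the members was near that of the classes from 500 bases upward. Among the called members 52 were over 2-fold higher in KD (5.19% of those tested, beside 4.03% of all genes) and 18 over 2-fold lower (1.80% beside 2.50%). A level is a share of the reads of a library, and fewer expressing cells cannot be told apart from less RNA in each cell. Without the unlabelled and 720 min libraries 204 members were higher (20.4%, beside 15.6% of all genes) and 147 lower (14.7% beside 15.3%). The lean of the members towards higher levels in KD depended on the course left out. Their median log2 difference was -0.02 without KD course 1 (beside -0.02 over all genes) and 0.09 without KD course 2 (beside -0.03). It was 0.06 without OE course 1 and 0.03 without OE course 2, beside 0.02 over all genes in both.

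**Figure D1:**
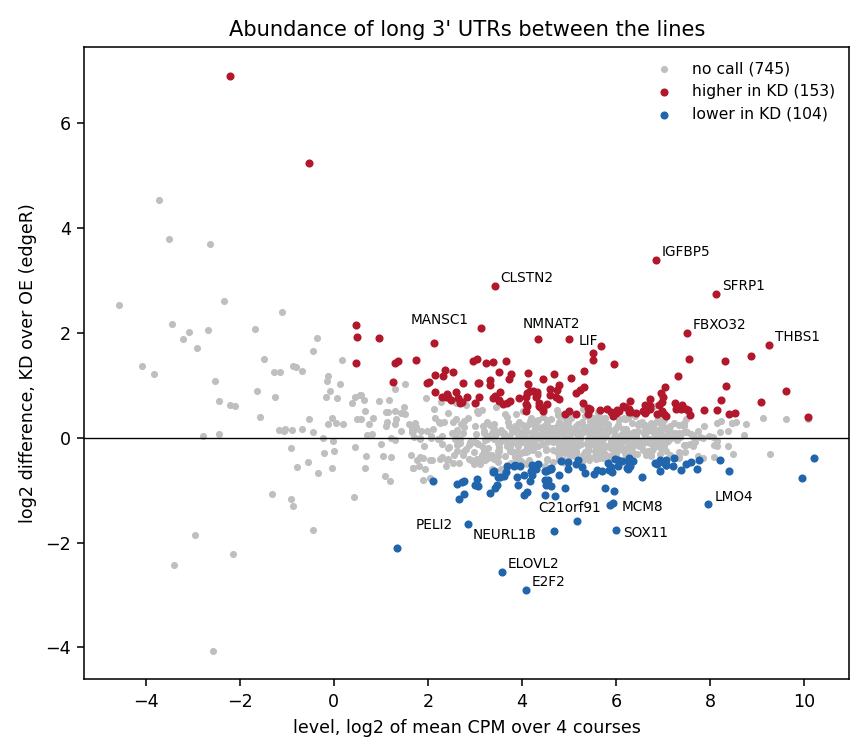
Log2 difference in abundance (KD over OE, edgeR) against the level (log2 of the mean CPM of 3′ UTR reads over 4 courses) for the 1002 members tested, each point 1 gene, with called members in red (153 higher in KD) and blue (104 lower) and the 16 described in the text named. Called members lie on both sides of 0 over most of the range of levels, and the 2 red points with the largest differences are at under 1 CPM.

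The largest rise among members of at least 5 CPM whose courses did not overlap was that of IGFBP5, which encodes a secreted protein that binds insulin-like growth factors. It stood at 216 and 202 CPM in the KD courses and at 18.9 and 20.7 CPM in the OE courses. Both KD courses were far above both OE courses, with a log2 difference of 3.39 (SE 0.13, adjusted p of 1.6e-06 by edgeR). SFRP1, a secreted antagonist of Wnt ligands, was at 556 and 417 CPM in KD and 64.5 and 78.7 in OE (log2 of 2.75, SE 0.17). THBS1, the matrix glycoprotein thrombospondin, whose nonamer is printed above, was the most abundant of the 16 named here, at 1045 and 833 CPM in KD and 285 and 262 in OE (log2 of 1.77, SE 0.14). FBXO32, the substrate-binding subunit of a ubiquitin ligase known from muscle wasting, was at 344 and 237 CPM in KD and 86.4 and 58.2 in OE (log2 of 1.996, SE 0.22). In these 3 the KD courses differed from each other by more than the OE courses did in CPM, and yet stayed above them.

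LIF, a cytokine of the interleukin 6 family and the member with 2 nonamers, was at 47.7 and 53.1 CPM in KD and 11.8 and 15.1 in OE, a log2 difference of 1.89 (SE 0.16). NMNAT2, an enzyme of NAD synthesis best known from axons, was at 33.8 and 29.95 CPM in KD and 8.95 and 8.20 in OE (log2 of 1.88, SE 0.16). CLSTN2, a calsyntenin of neuronal membranes with an interval of 11144 bases, was at 22.4 and 15.4 CPM in KD and 3.20 and 1.84 in OE (log2 of 2.89, SE 0.29). MANSC1, a membrane protein, was at 16.4 and 12.01 CPM in KD and 2.91 and 3.67 in OE (log2 of 2.10, SE 0.23). All 8 of these rises had an adjusted p of 2.4e-04 or less by edgeR.

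The largest fall was that of E2F2, which switches on genes of DNA replication. It stood at 3.54 and 4.43 CPM in KD and 27.9 and 31.5 in OE (log2 of -2.91, SE 0.18, adjusted p of 1.2e-05 by edgeR). MCM8, a helicase of homologous recombination, was at 33.1 and 35.4 CPM in KD and 84.7 and 80.7 in OE (log2 of -1.28, SE 0.13). SOX11, a transcription factor of neural and epithelial development, was at 32.1 and 26.6 CPM in KD and 105 and 91.2 in OE (log2 of -1.75, SE 0.15). In each of the 3 both KD courses were well below both OE courses. LMO4, a LIM-domain adaptor of transcription complexes, was the most abundant of the falls, at 150 and 144 CPM in KD and 352 and 351 in OE (log2 of -1.27, SE 0.12).

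The other 4 of the largest falls were ELOVL2, an elongase of polyunsaturated fatty acids, at 2.94 and 4.03 CPM in KD and 23.0 and 17.6 in OE (log2 of -2.55, SE 0.22), NEURL1B, a ubiquitin ligase of the Notch pathway, at 14.9 and 8.36 CPM in KD and 46.4 and 33.3 in OE (log2 of -1.79, SE 0.26), PELI2, a ubiquitin ligase of Toll-like receptor signalling, at 2.96 and 4.14 CPM in KD and 10.6 and 11.2 in OE (log2 of -1.63, SE 0.23), and C21orf91, at 19.4 and 16.8 CPM in KD and 59.4 and 48.9 in OE (log2 of -1.60, SE 0.16). The adjusted p of the 8 falls was 0.0011 or less by edgeR, with NEURL1B the highest, whose KD courses also differed most from each other relative to their level. Each of the 16 rises and falls was called under every alternative tried.

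**Figure D2:**
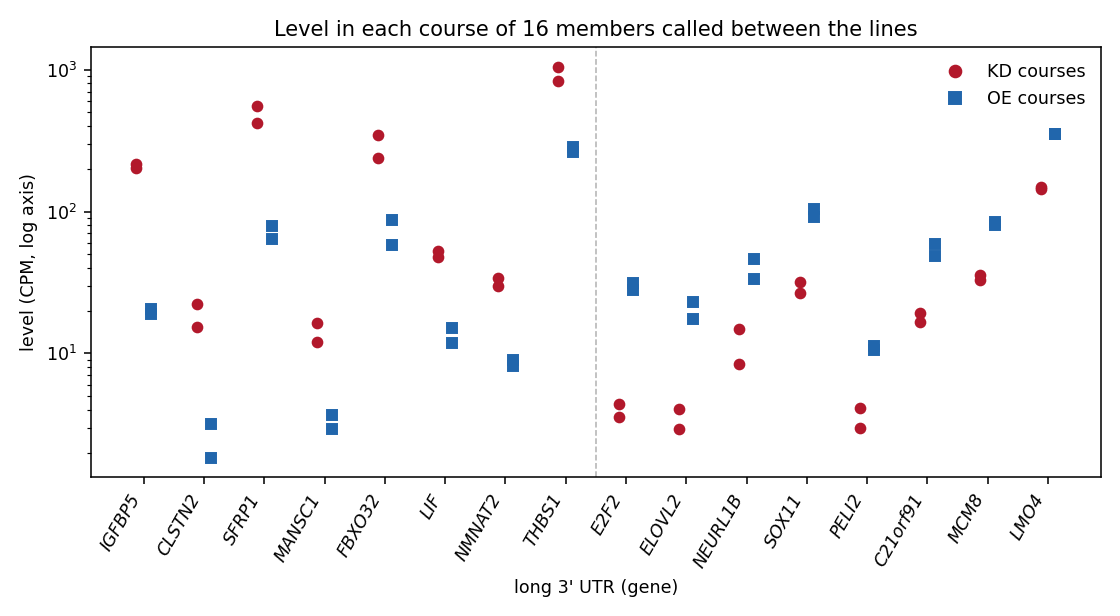
Level of the 16 members with the largest called differences in each of the 4 courses (CPM of 3′ UTR reads after TMM scaling, log axis), red circles for the 2 KD courses and blue squares for the 2 OE courses, 1 column per gene. The KD points lie above the OE points in the 8 genes on the left of the dashed line and below them in the 8 on the right, with no overlap in any.

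The members held part of 7 lists of genes by function, which were chosen with earlier results of these data known and are described by counts beside the 11.2% higher and 10.7% lower of all genes. Of the matrix and adhesion list 11 of 68 genes were members, of which 6 were higher in KD, 2 were lower and 3 did not pass, with a median log2 of 0.68 beside -0.01 over all genes. THBS1 and COL8A1, a short-chain collagen at 716 and 614 CPM in KD and 450 and 374 in OE (log2 of 0.68, SE 0.14, adjusted p of 0.0074 by edgeR), were its most abundant members. CDH4, a classical cadherin, fell the most, at 35.9 and 36.5 CPM in KD and 84.2 and 86.8 in OE (log2 of -1.25, SE 0.13). Of the list of transporters, channels and membrane traffic 14 of 70 genes were members, of which 6 rose in KD, 2 fell and 6 missed the threshold, at a median log2 of 0.41. SLC9A7, an exchanger of protons and cations in the trans-Golgi network, rose the most, at 62.5 and 51.4 CPM in KD and 21.6 and 25.2 in OE (log2 of 1.27, SE 0.15), and VLDLR, a lipoprotein receptor, fell the most, at 4.77 and 5.17 CPM in KD and 8.21 and 9.21 in OE (log2 of -0.82, SE 0.20), a call lost without KD course 1 or without OE course 2. SLC7A1, a transporter of basic amino acids, and ATP2B1, a calcium pump, were the most abundant of the list and did not pass.

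Of the list of chromatin and transcription factors 15 of 78 genes were members, of which 0 rose in KD, 5 fell and 10 missed the threshold, at a median log2 of -0.35. SOX11 had the largest fall, while the most abundant members, CBX5, a heterochromatin protein at 248 and 226 CPM in KD and 288 and 322 in OE, and ETS1, a transcription factor at 150 and 133 CPM in KD and 192 and 172 in OE, did not pass. Of 10 members in the list of RNA binding and microRNA machinery 1 fell and 9 missed the threshold, at a median log2 of -0.16. The 1 was TNRC6C, a scaffold of microRNA silencing, at 41.8 and 35.3 CPM in KD and 59.7 and 57.4 in OE (log2 of -0.61, SE 0.14, adjusted p of 0.011 by edgeR), and without KD course 2 it was not called. RBFOX2, a splicing regulator, at 157 and 159 CPM in KD and 144 and 149 in OE, and NUFIP2, an RNA-binding protein, at 74.8 and 73.2 CPM in KD and 70.1 and 71.2 in OE, were its most abundant members.

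Of 12 members in the list of receptors and kinases 2 rose in KD, 1 fell and 9 missed the threshold, at a median log2 of -0.09. FZD4, a receptor of Wnt and norrin, was at 26.2 and 22.8 CPM in KD and 10.5 and 10.2 in OE (log2 of 1.23, SE 0.16), and ACVR2B, a receptor of activins, at 5.53 and 2.30 CPM in KD and 9.09 and 8.43 in OE, a log2 of -1.17 (SE 0.35) that moved to -0.67 and was not called without KD course 2. MAP3K2, a kinase of the MAPK cascades, and IRS2 were the most abundant of this list and did not pass, like USP9X, an abundant deubiquitinase of the next list. Of 13 members in the list of ubiquitin ligases and deubiquitinases 1 rose, FBXO32, 1 fell, PELI2, and 11 missed the threshold, at a median log2 of -0.08. Of 3 members in the list of growth and survival CDK6, a kinase that acts with cyclin D1, was higher, at 194 and 179 CPM in KD and 118 and 115 in OE (log2 of 0.66, SE 0.12, adjusted p of 0.0037 by edgeR). E2F3, of the same family as E2F2, was lower, at 71.2 and 67.6 CPM in KD and 99.1 and 89.1 in OE (log2 of -0.45, SE 0.13), and lost the call without either KD course or without OE course 1. XIAP, an inhibitor of caspases, did not pass.

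Label content was compared next. At 0 min the median corrected rate, that is T>C conversions as a percentage of covered T bases minus the same in the unlabelled library of the course, was 0.794% and 0.786% in KD courses 1 and 2 and 0.815% and 0.830% in OE courses 1 and 2 over the 787 members of 5 CPM or more. Both OE medians were above both KD medians, and the means of the medians were 0.790% ± 0.00567 in KD and 0.822% ± 0.0104 in OE (SD, n = 2). The medians of the shorter classes were 0.849% to 0.911% for 1000 to under 3000 bases, 0.859% to 0.936% for 500 to under 1000 bases and 0.833% to 0.920% under 500 bases, so that in every course the median of the members was the lowest of the 4 classes, without a test, as it was without the subtraction (0.809%, 0.810%, 0.834% and 0.849% in the members). When conversions and T bases were summed over the members, which weights each by its reads, the rate was 0.925% and 0.890% in KD and 0.957% and 0.951% in OE. That was above the 0.867%, 0.802%, 0.948% and 0.884% of intervals under 500 bases in every course, and below the 1.002% and 0.982% of those of 1000 to under 3000 bases in the OE courses.

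**Figure D3:**
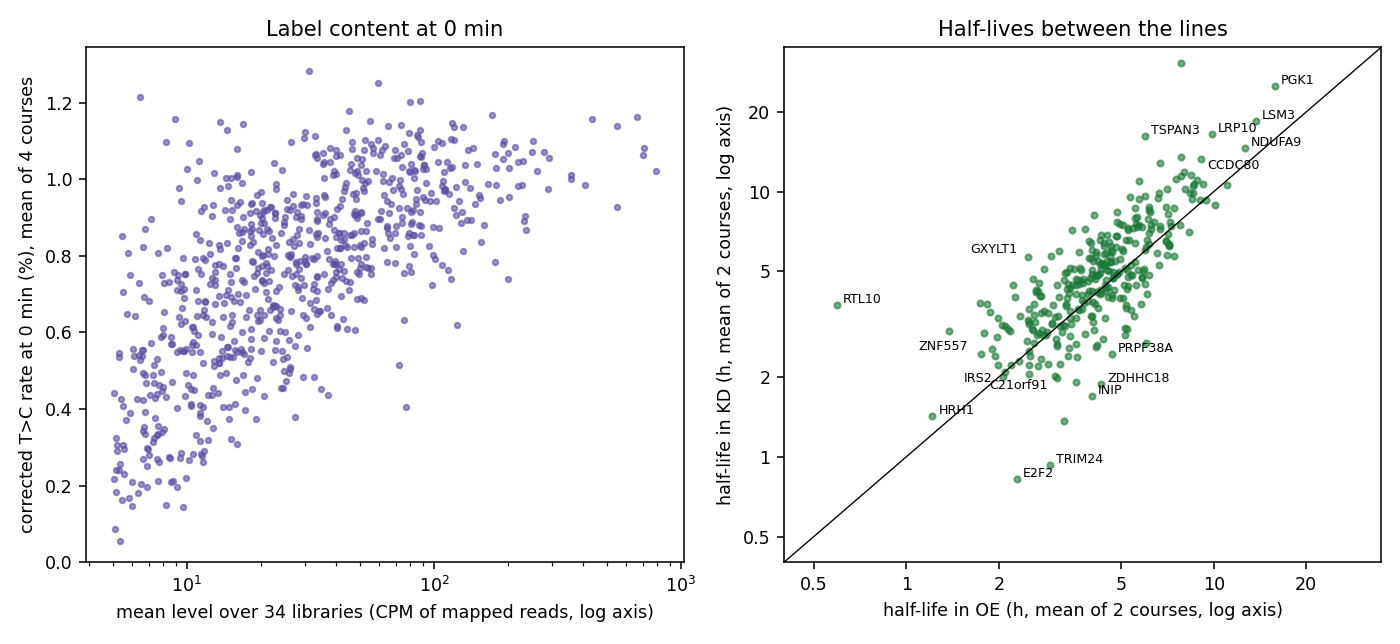
Left, corrected T>C rate at 0 min (percent of covered T bases, mean of 4 courses) against the mean level over 34 libraries (CPM of mapped reads, log axis) for 787 members. Right, half-life in KD against OE (h, means of 2 courses, log axes) for the 321 members with a half-life in every course, with the diagonal of equal values and the members described in the text named. Rates spread down to under 0.1% at low levels and narrow towards 1% at high levels. By the mean log2 ratio 210 of the 321 members are longer-lived in KD, beside 2257 of 3314 genes in all.

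The rate rose with the level among the members. With the members split by level into 3 groups of 262, 262 and 263, the median rate in the 4 courses was 0.4999% to 0.555% at 5.05 to 15.9 CPM, 0.746% to 0.818% in the middle group, and at 41.6 to 795 CPM it was 0.920% to 0.981%. Spearman's rho between mean rate and mean level was 0.68 over the 787 members, as a description, since all points share the same libraries and levels set the number of T bases counted. The rate had little relation to length (rho of -0.14), T content (0.09) or ATTTA per 1000 bases (0.04). The smallest number of T bases covered at 0 min in any course had a median of 23440 over the members, from 742 to 808281.

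Among members with 10000 or more covered T bases at 0 min in each course, RAD54L2, a helicase-like protein of the SNF2 family, had the highest mean rate, at 0.832% and 1.09% in the KD and 1.66% and 1.54% in the OE courses. The OE courses were above the KD courses, but the difference was not called (log2 of -0.72, adjusted p of 0.53 by edgeR). RWDD1 followed at 1.23% and 1.35% in KD and 1.38% and 1.04% in OE, ATP13A3, a transporter of polyamines, at 1.199% and 1.15% in KD and 1.05% and 1.42% in OE, and DDA1, a subunit of ubiquitin ligases, at 1.09% and 1.04% in KD and 1.24% and 1.43% in OE. The lowest rates were those of PYGO1, a coactivator of Wnt signalling (0.150% and 0.259% in KD, 0.396% and 0.0704% in OE), TRERF1, a transcription regulator (0.4004% and 0.336% in KD, 0.0232% and 0.335% in OE), ING1, a reader of histone methylation (0.0320% and 0.237% in KD, 0.634% and 0.255% in OE), and VCPIP1, a deubiquitinase (0.515% and 0.235% in KD, 0.0979% and 0.389% in OE). In each of the 4 the courses of at least 1 line differed by over 2 times, and the lines overlapped in PYGO1 and VCPIP1, at 10448 to 28925 covered T bases.

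Between the lines, 0 of 871 members passed in label content by edgeR, with conversions as counts and covered T bases as the offset, beside 6 of 9536 genes in all (0.0629%). At an unadjusted p under 0.05 by edgeR there were 61 members, or 7.003%, beside 7.49% of all genes, and 27 of the 61 were higher and 34 lower in KD. Limma on the log2 corrected rates called 0 as well. IGFBP5, the member that rose most in abundance, had 0.778% and 0.940% in KD and 0.352% and 0.457% in OE, without overlap, at an adjusted p of 0.12 by edgeR. At a minimum of 10000 covered T bases it was the 1 member called of 626, beside 12 of 6608 genes.

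Abundance calls and label differences were set side by side for the members tested in both. Of 136 members called higher in abundance in KD, 88 had the higher label rate in KD, with a median log2 difference in rate of 0.16, whereas of 103 called lower 69 had the lower rate, with a median of -0.24, and the 632 without a call had a median of -0.06. LIF was at 1.00% and 1.23% in KD against 0.373% and 0.619% in OE, and C21orf91 at 0.760% and 0.483% in KD against 1.17% and 1.15% in OE. LIF and C21orf91 were picked as examples after their values were seen. These counts were not made over all genes, so that the relation is not shown to be particular to the members. Counts at 0 min enter both measures, and no test was run on their relation.

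Loss of the label over the chase is shown by the rate left, in percent of that at 0 min and summed over the members. After 180 min 76.8% and 73.3% were left in the KD and 74.9% and 73.3% in the OE courses, which overlapped. After 360 min 43.96% and 46.3% were left in KD and 39.9% and 34.6% in OE, and after 1440 min 3.57% and 2.40% in KD and 2.03% and 0.771% in OE, so that at both times each KD course kept more than each OE course in these sums. At 1440 min the shorter classes did so too. Intervals under 500 bases kept 11.7% and 10.6% in KD and 7.40% and 5.85% in OE. Those of 500 to under 1000 bases kept 10.7% and 9.30% against 5.46% and 3.90%, and those of 1000 to under 3000 bases 4.94% and 4.03% against 2.54% and 1.37%. The median over members at 180 min was 71.3% and 62.4% in the KD courses, both below the 73.6% and 71.7% of the OE courses. With the median over members the courses overlapped at 1440 min, at 1.204% and 0.347% in KD and 0.934% and 0.121% in OE. Without the subtraction of unlabelled rates, 5.39% and 5.23% were left in KD and 3.57% and 3.24% in OE at that time, and 45.0% and 47.9% in KD and 40.8% and 36.2% in OE at 360 min. The means were 45.1% ± 1.68 and 37.2% ± 3.75 at 360 min, and 2.99% ± 0.830 and 1.40% ± 0.888 at 1440 min (SD, n = 2), where in the latter the lines differed by less than 2 times the SD of either. At 720 min OE course 1, whose library at that time stands apart, had 6.17% left and OE course 2 had 9.59%, with 16.7% and 15.2% in KD.

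In every course the members had less label left at 360 min than the 3 shorter classes. Intervals under 500 bases kept 67.7%, 69.3%, 67.9% and 61.4% in KD courses 1 and 2 and OE courses 1 and 2, those of 500 to under 1000 bases kept 53.5%, 55.4%, 53.1% and 47.6%, and those of 1000 to under 3000 bases kept 45.1%, 47.9%, 44.8% and 39.6%. The members were thus 1.1 to 5.0 percentage points below the class next to them and 23.0 to 28.1 below the shortest. Within the members, in the same order of courses, those of 3000 to under 4000 bases kept 46.2%, 48.9%, 40.2% and 35.1%, those of 4000 to under 5000 bases 43.3%, 46.8%, 41.5% and 35.7%, those of 5000 to under 8000 bases 42.5%, 43.2%, 39.5% and 34.2%, and those of 8000 bases or more 40.0%, 43.2%, 36.2% and 30.6%. The bin of 4000 to under 5000 bases was above the bin before it in both OE courses, and the medians over members in KD course 1, 28.5% in the shortest bin and 29.5% in the longest, did not fall with length.

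**Figure D4:**
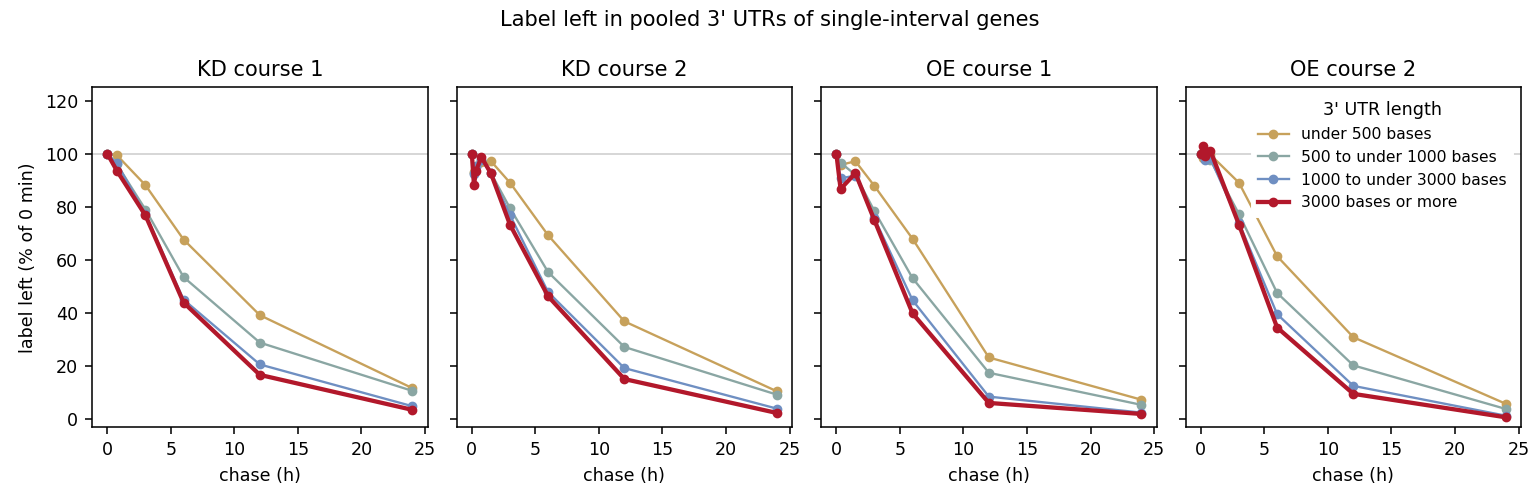
Label left over the chase (corrected T>C rate in percent of that at 0 min, against hours of chase) in each of the 4 courses, summed over intervals of 5 CPM or more in 4 classes of 3′ UTR length, with the members in thick red. In every course the red line is the lowest from 6 h onward and the line of intervals under 500 bases the highest, with 34.6% to 46.3% and 61.4% to 69.3% left at 6 h.

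Half-lives were fitted for each course as a single exponential from the corrected rates, and a fit was kept at an R2 of at least 0.6. The median half-life of the members was 3.85 h and 4.33 h in KD courses 1 and 2 (639 and 440 members) and 4.14 h and 3.63 h in OE courses 1 and 2 (499 and 584 members). Medians were 4.03, 4.73, 4.32 and 3.79 h in the class of 1000 to under 3000 bases, 4.41, 5.01, 4.61 and 4.28 h in that of 500 to under 1000 and 5.60, 6.33, 5.46 and 5.27 h under 500 bases, so that in each course the order of the classes was the order of length, and no test was run on it. The step from the members to the class next to them was 0.156 to 0.404 h, and the quartiles of the classes overlapped widely. For the 321 members with a half-life in every course the median of the mean half-life was 4.46 h, beside 4.46, 4.82 and 5.81 h in the shorter classes in order, so that among genes measured in all courses the members did not stand below the class of 1000 to under 3000 bases. Over the length bins of the members it was 4.32 h at 3000 to under 4000, 4.78 h at 4000 to under 5000, 4.48 h at 5000 to under 8000 and 4.41 h at 8000 bases or more, with no order by length.

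**Figure D5:**
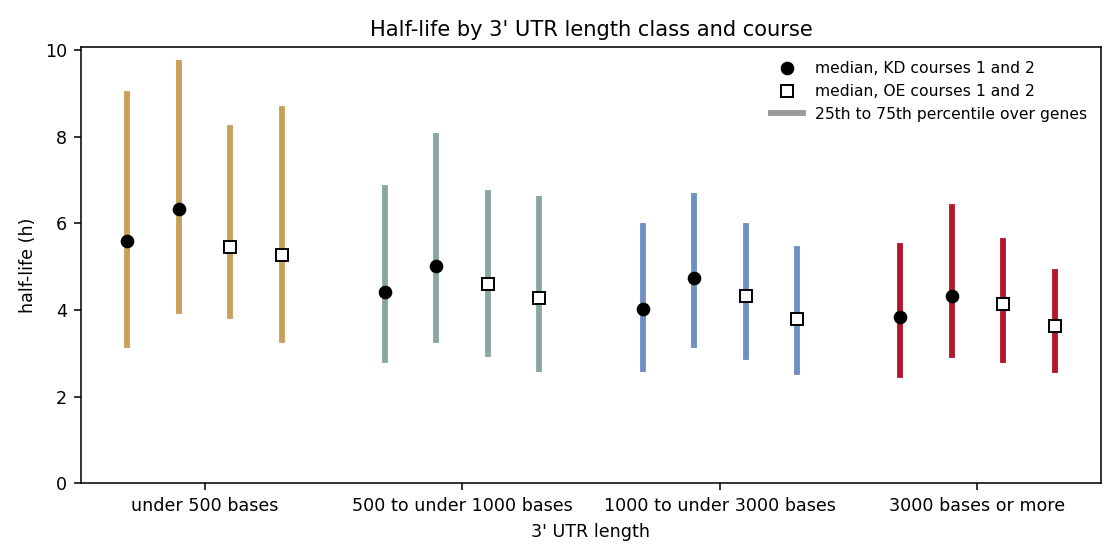
Half-life (h) by class of 3′ UTR length and course, black circles for the medians of KD courses 1 and 2, open squares for those of OE courses 1 and 2, and bars from the 25th to the 75th percentile over genes. The medians of the members are 3.63 to 4.33 h and those of intervals under 500 bases 5.27 to 6.33 h, and the KD and OE medians of the members overlap.

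By line, the median half-life of the members was 4.09 h ± 0.337 in KD and 3.89 h ± 0.359 in OE (SD of 2 course medians), a difference smaller than either SD. The 720 min library of OE course 1 bears on this, since without it the median of that course was 4.48 h. Member by member, 210 of the 321 were longer-lived in KD, beside 2257 of the 3314 genes measured in every course. The median log2 ratio was 0.21 beside 0.20 over those genes, and 0.11 for both without that library. Then 177 of 292 members were longer-lived in KD, beside 1881 of 3111 genes. Without the R2 minimum 403 of 720 members were longer-lived in KD, beside 4824 of 7994 genes. The difference depended on the pair of courses, from a median log2 of 0.05 for KD course 1 over OE course 1 to 0.27 for KD course 2 over OE course 2, while OE course 2 over OE course 1 gave -0.13.

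No member passed in half-life by limma on log2 half-lives (0 of 321, beside 0 of 3314 genes, 0.0%). At an unadjusted p under 0.05 by limma there were 23 members, or 7.17%, of which 20 were longer and 3 shorter in KD, beside 9.05% of all genes. Leaving out the 720 min library of OE course 1 gave 15 of 292 members, 10 longer and 5 shorter, beside 178 of 3111 genes. Without the R2 minimum there were 39 of 720 members at that p by limma, beside 401 of 7994 genes. Of these 39 members, 18 were longer and 21 shorter in KD, so that the lean to longer half-lives depended on the fits kept. The half-lives of 104 members, 32.4%, were longer in both KD than in both OE courses, beside 33.2% of all genes, and those of 28, 8.72%, were shorter, beside 9.32%. These shares were near those of all genes, and with 2 courses in each line a ratio of a single member had a standard error of 0.27 to 1.32 on the log2 scale among those named below.

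TSPAN3, a tetraspanin, had 16.6 h and 15.8 h in KD and 7.59 h and 4.39 h in OE (log2 of 1.49, SE 0.31), and GXYLT1, a glycosyltransferase of the Notch receptor, 6.06 h and 5.24 h in KD and 2.52 h and 2.46 h in OE (log2 of 1.18, SE 0.35), neither of them called. TSPAN3 and GXYLT1 differed in level by a log2 of 0.01 and -0.01, with means of 165 CPM in KD and 163 in OE and of 66.3 CPM in both lines.

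RTL10, derived from a retrotransposon, had the largest ratio without overlap, but its courses were as uneven as 5.26 h and 2.2 h in KD and 0.114 h and 1.07 h in OE. The 0.114 h is below the first chase time of OE course 1 after 0 min, which was 20 min, and is not resolved. The largest ratios in the other direction were those of TRIM24, a reader of chromatin marks and ubiquitin ligase (0.406 h and 1.45 h in KD, 4.22 h and 1.66 h in OE), PRPF38A, a splicing factor (3.95 h and 0.928 h in KD, 5.19 h and 4.13 h in OE), ZDHHC18, a palmitoyltransferase (2.48 h and 1.28 h in KD, 4.98 h and 3.64 h in OE), and INIP, a subunit of a complex that binds single-stranded DNA (1.41 h and 1.98 h in KD, 4.55 h and 3.50 h in OE). The courses of the lines did not overlap in any of the 4, and the adjusted p was 0.52 to 0.58 by limma. The 0.406 h of TRIM24 is likewise below the first chase time of KD course 1 after 0 min, which was 45 min. TRIM24, PRPF38A and ZDHHC18 were also lower in abundance in KD, at a log2 of -0.89, -1.01 and -0.59 with an adjusted p of 0.016 or less by edgeR, and INIP was not called.

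Across the 321 members the mean half-life ran from 1.32 to 20.4 h, with 2.70 h at the tenth and 7.67 h at the ninetieth percentile. Among the longest, PGK1, a kinase of glycolysis, had 35.1 h and 14.8 h in KD and 20.5 h and 11.1 h in OE, LSM3, a subunit of the U6 snRNP and of the decapping activator ring, had 19.8 h and 17.1 h in KD and 16.1 h and 11.3 h in OE, and NDUFA9, a subunit of respiratory complex I, had 12.9 h and 16.3 h in KD and 13.3 h and 11.98 h in OE. The courses spread by more than 3 times in PGK1 and far less in NDUFA9. LRP10, a receptor of the lipoprotein receptor family, followed with 20.6 h and 12.4 h in KD and 9.99 h and 9.67 h in OE, and CCDC80, a matrix protein, with 14.7 h and 11.8 h in KD and 9.81 h and 8.37 h in OE, in both of which the KD courses were above the OE courses without a call.

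At the other end, HRH1, the histamine H1 receptor, had 1.66 h and 1.19 h in KD and 0.773 h and 1.66 h in OE, IRS2, an adaptor of the insulin receptor, 1.73 h and 2.28 h in KD and 2.06 h and 2.06 h in OE, ZNF557, a zinc finger protein, 2.48 h and 2.40 h in KD and 2.41 h and 1.07 h in OE, and C21orf91 1.35 h and 2.84 h in KD and 2.40 h and 1.79 h in OE. IRS2 was the most even of them, and the lines overlapped in all 4 of these. E2F2, at 1.21 h and 0.445 h in KD and 3.91 h and 0.663 h in OE, and TRIM24 completed the 6 shortest, but E2F2 rested on 3.54 and 4.43 CPM in the KD courses.

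Half-life ran more closely with level than with the sequence features counted. Spearman's rho with the mean level was 0.38 over the 321 members, and the median half-life was 3.67 h, 4.76 h and 5.24 h in 3 groups of 107 members from the lowest to the highest level, as a description of points that share libraries and in which a fit at low level has fewer T bases. With length rho was -0.03, with T content 0.05, with GC content -0.06 and with ATTTA per 1000 bases 0.07. The 82 members with a TTATTTATT had a median of 4.25 h and the 239 without one 4.50 h, and the 203 with a TGTANATA had 4.36 h and the 118 without one 4.80 h. The members with these motifs were also longer, with median lengths of 5028.5 bases against 4156 and of 4641 against 4029.5, and no test was run.

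Members called higher in abundance in KD had a larger half-life ratio than the rest. Among 45 of them with a half-life in every course, 40 were longer-lived in KD, with a median log2 ratio of 0.35. Among 45 called lower the count was 23 and the median 0.04, and among 231 without a call it was 147 and 0.21. CDK6, in the first of these groups, had 4.47 h and 4.44 h in KD and 4.62 h and 2.51 h in OE. Of all genes measured in every course 2257 of 3314 were longer-lived in KD. They were not split by abundance call, so that the relation is not shown to be particular to the members. Both measures come from the same libraries, and the relation was not tested.

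The 5 longest intervals that reached 5 CPM were those of FLRT2 with 30929 bases (chr14:85623498-85654426), ZBTB20 with 24504 (chr3:114314501-114339004), SRGAP1 with 19549 (chr12:64142673-64162221), CNKSR3 with 18850 (chr6:154387504-154406353) and SLITRK5 with 18007 (chr13:87678266-87696272). ZBTB20, a zinc finger repressor, was the most abundant of them at 211 and 194 CPM in KD and 161 and 151 in OE, and had a half-life of 4.64 h and 2.60 h in KD and 2.17 h and 2.84 h in OE. SRGAP1, a GTPase activator of the Slit and Robo pathway, was at 87.1 and 86.3 CPM in KD and 88.2 and 86.0 in OE, which overlapped, with a half-life of 4.36 h and 1.93 h in KD and 2.05 h and 2.04 h in OE. CNKSR3, a scaffold protein of kinase signalling, was the only one of the 5 called, at 6.46 and 6.63 CPM in KD and 16.05 and 10.9 in OE (log2 of -1.06, SE 0.22, adjusted p of 0.0068 by edgeR). FLRT2, an adhesion protein, was at 19.7 and 15.6 CPM in KD and 18.4 and 16.9 in OE, and SLITRK5, a neuronal membrane protein, at 7.72 and 8.27 CPM in KD and 7.95 and 8.98 in OE. Neither these 2 nor CNKSR3 had a half-life in every course.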

How the data were processed

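Tables of 34 libraries, 1 for each, were used as deposited. Per the file headers and labels, the authors' sequencing service counted 100 nt QuantSeq reads, without molecular identifiers, over 3′ UTR intervals with SLAMdunk 0.4.3 on hg38 (release of the intervals not given in the sources used here). The deposited values are raw counts of reads, multimapped reads, covered T bases and T>C conversions, the authors' CPM of mapped reads, and a conversion rate, a fraction equal to the quotient of the conversion and T base columns. The deposited length and T content are other values, and T content equalled that of hg38 in all 5508 single-interval regions classed here. Intervals of a gene were summed for tests over all genes, and 1168 intervals of several genes were left out. Abundance and label content were tested with edgeR 4.0.16 (TMM, filterByExpr, quasi-likelihood) and half-lives with limma 3.58.1 (trend), with Benjamini-Hochberg adjustment over all genes and a threshold of 0.05. Each was also run on simulated data, which checks the code and not how well the models describe these courses. DESeq2 1.42.0 and limma were alternatives. Label tests needed 1 CPM and 1000 covered T bases in each 0 min library, and label and decay left out intervals over the multimapping limit. Rates minus the unlabelled rate of the course (negative values set to 0), relative to 0 min, were fitted to exp(-Kt) by least squares with at least 4 time points of 1 CPM or more, and fits with K at an end of the range or R2 under 0.6 were left out. Named members were, by rule, the 8 largest called differences each way at a mean of 5 CPM with courses not overlapping, the 4 highest and lowest rates, the 6 longest and shortest half-lives, the 4 largest half-life ratios each way without overlap, the 5 longest intervals, and for each list of genes the 2 most abundant members and the largest call each way. LIF, C21orf91 and IGFBP5 in label content and CDK6 in half-life were added after their values were seen. Of the members the rule names, 1 is not reported here. Members, lists and rules were chosen with earlier results of these data known. Other alternatives, and courses left out in turn, are in the closing section.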

Additional observations from a re-analysis of the deposited data

How the results depend on the processing

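The count of members called in abundance was 257 (25.6%, beside 21.9% of all genes) and stayed within 1.5 times under the following alternatives. It was 258 under RLE scaling (25.7% beside 21.9%), 313 by DESeq2 (31.1% beside 26.8%) and 313 without a filter on low counts (30.9% beside 21.8%). With multimapped reads subtracted it was 248 (24.7% beside 21.6%), and without the unlabelled and 720 min libraries 351 (35.1% beside 30.9%). With 1 course left out the lone course is assumed to vary like the other line, so that median differences are given above in place of counts. With the replicate number as a block the count rose to 433 (43.2%), while that over all genes rose from 2885 (21.9%) to 5251 (39.9%). The block is no established pairing, since courses share only a number (correlation of same-numbered deviations of 0.27 in abundance, 0.00 in label content and -0.02 in half-life). All 257 were also called by DESeq2, by RLE scaling, without the filter and with the block, and 113 in every setting. Of 260 values of 26 called members named in the text under alternatives, 253 kept call and direction and 7, of E2F3, TNRC6C, ACVR2B and VLDLR with a course left out, kept the direction alone. In label content the count of 0 became 1 at 10000 covered T bases, 4 with the replicate block and 0 to 5 with a course left out, and in half-life 1 without 720 min in all courses, and 0 with the replicate block and in all other settings. Over all genes the label count went from 6 of 9536 to 12 of 6608 at 10000 covered T bases. With the replicate block the label count over all genes was 58 of 9536. The half-life count over all genes went from 0 of 3314 to 2 of 2695 without 720 min in all courses. The gains are thus not shown to be particular to the members. The cause of these changes was not tested.

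The median half-life in KD, 4.09 h, moved to 4.53 h at a mean of 20 CPM or more and to 4.59 h with only members that had a half-life in all 4 courses, and stayed within the SD of the courses in the 6 other settings, as that of OE did in all 8 (3.69 to 4.22 h). With the median over members in place of the sum, the label left was 32.2% in KD and 23.7% in OE at 360 min and 0.775% and 0.527% at 1440 min, which gives members of low level the same weight as others, and the lines then overlapped at 1440 min. Without subtraction of the unlabelled rate, an alternative chosen after seeing the data, the mean sums were 46.5% in KD and 38.5% in OE at 360 min and 5.31% and 3.40% at 1440 min. Label content of single members is limited by T bases covered, and half-lives above the 24 h of the chase are extrapolated.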
